A study of Caenorhabditis elegans with 3 samples.

Results

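Genes for nuclear transfer RNA (tRNA) that were contacted by DCR-1, the worm Dicer, in Caenorhabditis elegans were taken from 5 lists of PAR-CLIP clusters. A cluster belonged to the set when it lay outside the mitochondrial genome and the authors' annotation gave it the tRNA class and not the miRNA class, and its gene was the sense name ending in .t and a number. This gave 128 genes in all. They accounted for 52 of 377 nuclear clusters listed for T1/V1 replicate 1, for 52 of 357 listed for T1/V1 replicate 2, and for 96 of the 1281 of T1 replicate 3. They held 111 of 4598 nuclear clusters in the pooled list named consensus and 83 of 2448 in the pooled list named conservative. Each tRNA cluster named a single tRNA gene.

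All libraries came from whole young adult worms whose DCR-1 carried a FLAG tag in a rescue strain. The worms were labelled with 4-thiouridine and irradiated with UV, and in PAR-CLIP a base that was bound to the protein this way shows up as a T-to-C conversion in the reads. The labels name RNases T1 and V1 for replicates 1 and 2, and RNase T1 alone for replicate 3, while the design text gives both enzymes for the experiment. RNase T1 cuts after unpaired G and RNase V1 cuts paired RNA. The 3' adapter was a custom one in replicates 1 and 2, called the T1/V1 pair here and given in that order, and another in replicate 3, so that adapter and nuclease cannot be told apart. No library without the tag, without crosslinking or of input RNA was analysed here, so no background level stands beside these values. Nuclear clusters held 7280 and 10312 reads in the T1/V1 libraries and 24032 reads in T1 replicate 3. Separate cultures are not named in the labels, so the spread between libraries may be technical.

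A tRNA carries an amino acid to the ribosome. It is transcribed by RNA polymerase III as a precursor with extra sequence at both ends, trimmed by RNase P and RNase Z, and folded into a cloverleaf of paired stems that bears many modified bases. Dicer is best known for cutting long double-stranded RNA and miRNA precursors, and in mouse and human cells some tRNA fragments have been described as its products. Genes for tRNA exist in many near-identical copies, so a read may fit several of them about equally well.

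The T1/V1 pair of libraries listed 51 and 51 of the 128 genes, and T1 replicate 3 listed 96. In the pooled lists, 109 genes had a consensus cluster and 82 a conservative cluster. All 128 were matched by name to tRNA genes of assembly WBcel235, none to its 209 annotated tRNA pseudogenes, and they made up 20.9% of its 612 nuclear tRNA genes. The X chromosome held 55 of the 128. These were 19.9% of the 276 tRNA genes annotated on the X (exact 95% binomial interval 15.4% to 25.1%), against 73 of 336 on the autosomes, or 21.7%. The autosomes ranged between 16.7% of 66 genes on chromosome I and 26.9% of 78 on chromosome V. In the consensus list, 30 of the 111 tRNA clusters also lay in an intron of a gene on the same strand, where the counting cannot separate tRNA from intron.

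As a share of all nuclear cluster reads, tRNA accounted for 15.3% and 19.2% within the T1/V1 pair, a mean of 17.2% ± 2.76 (SD, n = 2), and for 20.4% of T1 replicate 3. With 2 libraries against 1, no test between nucleases was made. A median tRNA cluster held 12, 16 and 27 reads in replicates 1, 2 and 3, against 6, 7 and 3 reads for other nuclear clusters. The tRNA median was higher in 3 of 3 libraries (exact two-sided sign-flip permutation test over libraries, p = 0.25, the smallest that 3 libraries can give). Among clusters of at least 10 reads this one direction was lost: the tRNA median minus that of other nuclear clusters was -2 and -7 reads in the T1/V1 pair and 13 reads in T1 replicate 3 (exact sign-flip permutation test, p = 1). The reads were spread over many genes. The leading gene of each library took 9.54% of the tRNA reads in T1/V1 replicate 1 (K02A4.t1), 16.3% in T1/V1 replicate 2 (R04E5.t1) and 6.6% in T1 replicate 3 (K02E11.t1), and the 5 leading genes took 34.5%, 48.5% and 25.9%.

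Of the 107 genes with a cluster in at least 1 library, 35 had a cluster in all 3. The gene with the highest mean share over the libraries was K02E11.t1 on chromosome V, 14231340 to 14231393 in the consensus list, with 91 and 304 reads in the T1/V1 pair and 323 in T1 replicate 3. R04E5.t1 on the X chromosome, 8819620 to 8819699, followed with 55 and 322 reads in the T1/V1 pair and 113 in T1 replicate 3. Its T1 read count thus lay between those of the T1/V1 replicates. Its share of the library's tRNA reads was 4.95% and 16.3% in the T1/V1 pair and lowest, at 2.31%, in T1 replicate 3. The neighbours K02A4.t1 and K02A4.t2, which lie on opposite strands of the X chromosome at 12889857 to 12889959 and 12890203 to 12890277, came next. K02A4.t1 held 106 and 121 reads in the T1/V1 pair and 165 in T1 replicate 3, and K02A4.t2 held 84 and 116 reads and 190 reads. Both read counts were close in the T1/V1 pair and higher in the T1 library, but the shares of tRNA reads were lowest there. They were 9.54% and 6.12% in the T1/V1 pair and 3.37% in T1 replicate 3 for K02A4.t1. For K02A4.t2 they were 7.56% and 5.87% in the T1/V1 pair and 3.88% in T1 replicate 3.

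The genes C38C6.t1, T07H6.t1, ZK783.t1 and R03E1.t2 completed the 8 with the highest shares. C38C6.t1, in an intron of sre-13, held 28 and 95 reads in the T1/V1 pair and 125 in T1 replicate 3, and ZK783.t1, which lies in an intron of the uridine phosphorylase gene upp-1, held 36 and 83 reads and 96 reads. For T07H6.t1 the reads were 24 and 32 in the T1/V1 pair and 288 in T1 replicate 3, and for R03E1.t2 they were 32 and 43 and 197. The last pair stood out by a T1 value several times that of either T1/V1 replicate, whereas the T1 value of ZK783.t1 was close to that of T1/V1 replicate 2. Over the 35 genes the median was 15 and 18 reads in the T1/V1 pair and 60 in T1 replicate 3, which also held more reads in all. Across genes, which are not independent replicates, reads were ranked alike, with Spearman's rho of 0.81 between the T1/V1 replicates over 37 genes, and of 0.66 and 0.65 between each of them and T1 replicate 3 over 45 and 44 genes.

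**Figure D1:**
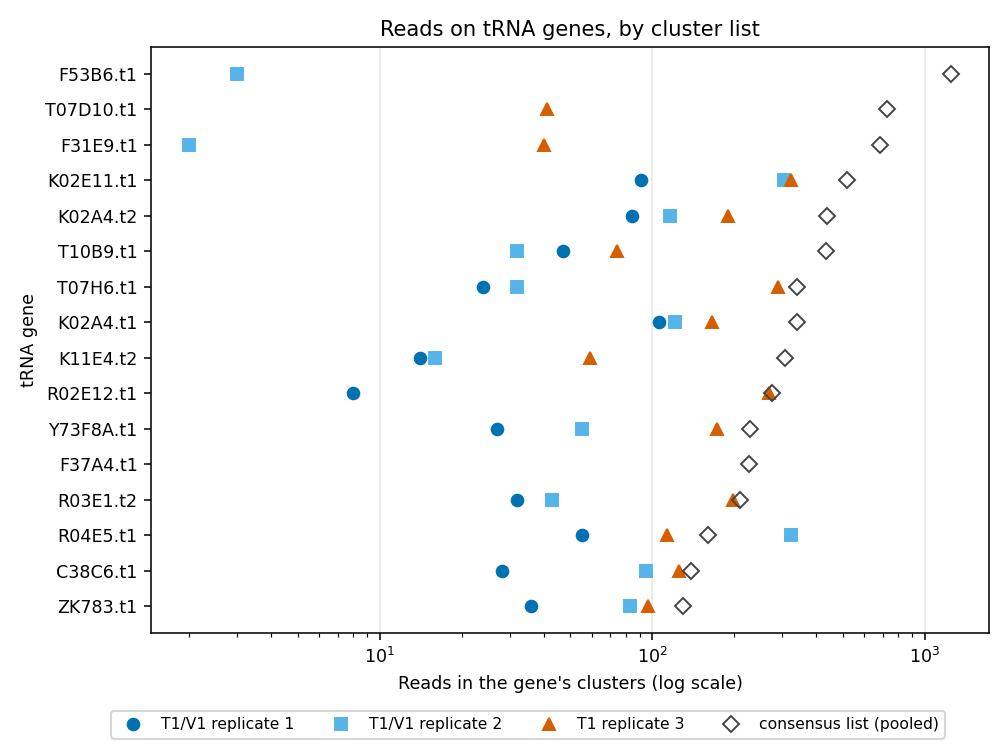
Reads in the clusters of 16 tRNA genes (log axis), by library and in the pooled consensus list; the genes are the 12 with most consensus reads and the 8 with the highest mean share over libraries, and a missing point means no cluster in that list. F53B6.t1, with 1247 consensus reads, has a single library point at 3 reads, while K02E11.t1 has 91, 304 and 323.

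The order of genes in the pooled lists differed from that in the libraries. F53B6.t1, T07D10.t1 and F31E9.t1 led the consensus list with 1247, 728 and 683 reads, yet held few reads in library clusters. The F53B6.t1 cluster on chromosome I, 8953160 to 8953189, lies in an intron of F53B6.7 and was listed in T1/V1 replicate 2 alone, at 3 reads. T07D10.t1 on chromosome I, 12601758 to 12601833, had no cluster in the T1/V1 pair and 41 reads in T1 replicate 3. F31E9.t1 on chromosome V, 17317895 to 17317930, was listed at 2 reads by T1/V1 replicate 2 and at 40 by T1 replicate 3. The authors' count of libraries with reads was nevertheless 3 for each of these clusters.

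F37A4.t1 and T25B6.t1 had no cluster in any library list. F37A4.t1 had 2 consensus clusters on chromosome III, with 34 reads and 34 conversions at 6724070 to 6724110 and 193 reads and 26 conversions at 6724126 to 6724158. T25B6.t1 on the X chromosome, 9025598 to 9025679, had 81 consensus reads and 86 conversions. In all, 21 consensus genes had no library cluster and 19 library genes had no consensus cluster. Of the 111 consensus tRNA clusters, 88 overlapped a library cluster, against 20.8% of all consensus clusters. Of these 88, 16 held more than 2 times the summed reads of those clusters, against 37.7% of all 957 such nuclear clusters. Fewer reads than that sum were held by 31 of the 88, against 112 of the 957. The pooled reads are therefore not a plain sum of the listed library reads, and the sources used here do not say how they were pooled. The remaining genes among the 12 with most consensus reads were T10B9.t1, K11E4.t2, R02E12.t1 and Y73F8A.t1, besides those described with the libraries. T10B9.t1 held 47 and 32 reads in the T1/V1 pair, 74 in T1 replicate 3 and 435 in the consensus list, and K11E4.t2 held 14 and 16 reads, 59 reads and 307 reads. R02E12.t1 was listed with 8 reads by T1/V1 replicate 1, not by T1/V1 replicate 2, with 268 by T1 replicate 3 and with 275 by the consensus list.

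Clusters on tRNA genes were shorter in the T1/V1 libraries than in the T1 library. A cluster of at most 40 nt was called a part and a cluster of at least 60 nt whole, since cluster ends are set by reads and the gene's own ends were not used. Parts were 28 and 24 of 52 tRNA clusters in the T1/V1 pair, a mean of 50% ± 5.44 (SD, n = 2), and 9 of 96 or 9.38% in T1 replicate 3. Among all nuclear clusters, parts were 52.3% and 41.7% in the T1/V1 lists and 24.6% in the T1 list, so the share in the T1/V1 libraries was near that of all clusters. Whole clusters were 9 and 10 of 52 in the T1/V1 pair and 40 of 96 in T1 replicate 3, against 29.2%, 35.6% and 39% of all nuclear clusters. With 2 libraries against 1 the difference was not tested. It depends on the limit for a part: at 35 nt in place of 40 nt, parts were 7.69% and 7.69% in the T1/V1 pair and 3.12% in T1 replicate 3. In the consensus list 15 of 111 tRNA clusters were parts, against 36.9% of all, and 50 were whole, against 29.3%. The median tRNA cluster was 39 and 41.5 nt in the T1/V1 pair and 53 nt in T1 replicate 3.

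The lengths fell into narrow ranges, which were picked after the values were seen. In the T1/V1 replicates 23 and 20 of 52 clusters were 36 to 39 nt long, against 1 of 96 in T1 replicate 3. There, 32 clusters were 47 to 55 nt long and 29 were 71 to 80 nt long, a second range close to the length of a full tRNA. Only 3 and 5 clusters of the T1/V1 replicates lay in that longer range. Shares of all nuclear clusters in these ranges are not given here, so the ranges cannot be called particular to tRNA. The median of other nuclear clusters was 40 and 46 nt in the T1/V1 pair and 51 nt in T1 replicate 3. The sources used here do not give the read lengths of the libraries, and their part in these cluster lengths was not tested. The longest tRNA cluster of the libraries, on F22B7.t1, was 143 nt, and was picked for its length after the values were seen.

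**Figure D2:**
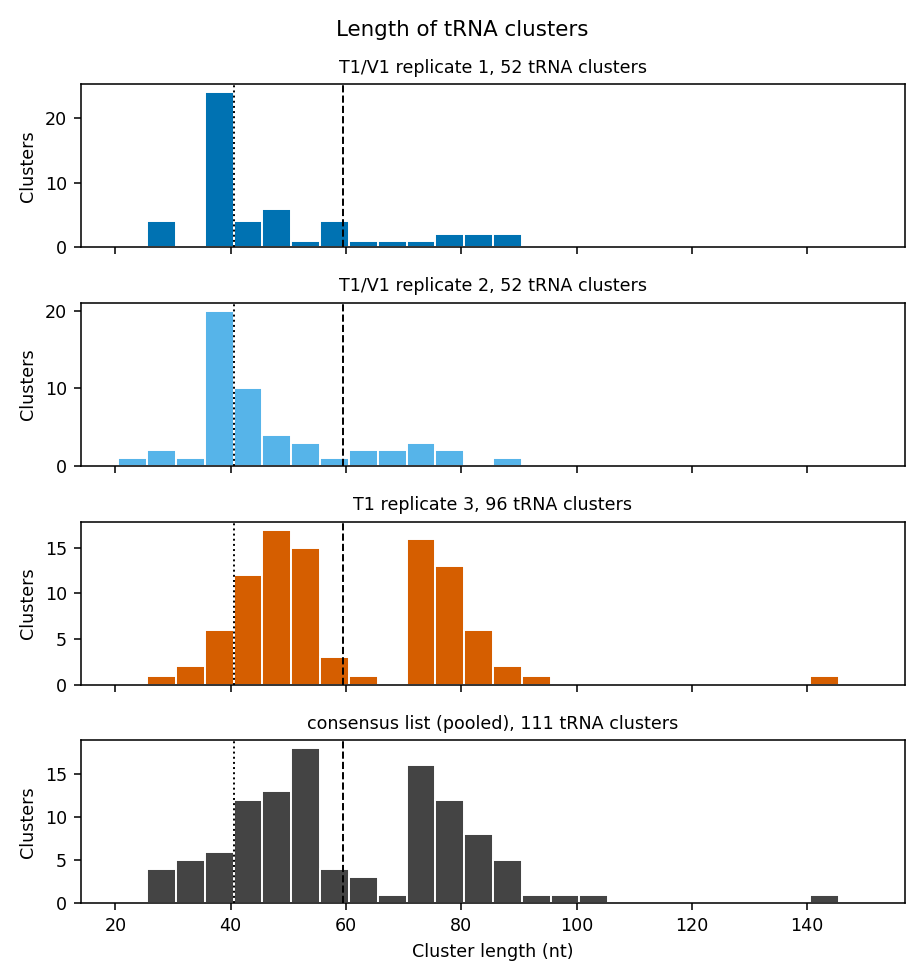
Number of tRNA clusters by length in nt in each library and in the pooled consensus list, in steps of 5 nt; the dotted line marks 40 nt and the dashed line 60 nt. The T1/V1 libraries have a single peak at 36 to 39 nt, and T1 replicate 3 and the consensus list have peaks near 50 and 75 nt.

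The same genes showed the difference. Of the 35 genes with clusters in all libraries, 29 had their longest cluster in T1 replicate 3. The median length over the 35 was 40 and 42 nt in the T1/V1 pair and 72 nt in T1 replicate 3. The same count over other nuclear clusters is not given here. K02A4.t1, K02A4.t2, K06A4.t1, F54F7.t1, T22F3.t3 and T28C12.t1 were whole in all 3 libraries, and these genes and the next 4 were picked after the values were seen. K02A4.t2, for example, measured 72 and 74 nt in the T1/V1 pair and 75 nt in T1 replicate 3. By contrast C38C6.t1, R03E1.t2, R04E5.t1 and Y69A2AR.t2 were whole in the T1 library and parts in both T1/V1 libraries. C38C6.t1 measured 36 and 37 nt in the T1/V1 pair and 85 nt in T1 replicate 3, and R04E5.t1 37 and 38 nt and 80 nt.

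R03E1.t2 showed both parts of the molecule at once. In each T1/V1 library it had 2 clusters on the minus strand of the X chromosome. The 5' cluster, 14161985 to 14162023, held 9 and 19 reads in replicates 1 and 2. The 3' cluster, 14161945 to 14161981, held 23 and 24 reads. In T1 replicate 3 a single cluster of 76 nt, 14161945 to 14162020, held 197 reads. The gap between the T1/V1 clusters was thus covered in the T1 library. F37A4.t1 also had separate 5' and 3' clusters, in the consensus list.

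For the other genes the side of the molecule could be read for few clusters. Set on the 47 consensus tRNA clusters of 60 to 95 nt, the centre of a part lay towards the 5' end for 4 of 8 and 5 of 7 cases in the T1/V1 pair and for 1 of 1 of T1 replicate 3. These counts are too few to show a side (exact 95% binomial interval 15.7% to 84.3% for 4 of 8). Along the 47 consensus clusters themselves, the main conversion position, that with most conversions by the authors' own mark, lay in the first of 3 equal parts in 19, in the middle in 12 and in the last in 16.

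The number of conversions per read differed widely between tRNA genes and was ranked alike between libraries. Every listed cluster held at least 1 conversion, so the value has a floor set by the number of reads. Exactly 1 conversion was held by 9 and 11 tRNA clusters in the T1/V1 pair and by 18 in T1 replicate 3. The part of read depth in these values was not tested. Summed over tRNA clusters it was 0.347 and 0.283 in the T1/V1 pair, a mean of 0.315 ± 0.0456 (SD, n = 2), against 0.444 for T1 replicate 3, and 0.514 in the pooled consensus list. Across the genes shared by a pair of libraries, Spearman's rho for conversions per read was 0.79 between the T1/V1 replicates and 0.87 and 0.84 between each of them and T1 replicate 3, over 37, 45 and 44 genes that share sequence and counting. For the libraries of different nuclease these are above the values for reads.

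At the high end stood T07H6.t1, on the X chromosome at 6286302 to 6286356. Its reads carried 1.83 and 1.81 conversions each in the T1/V1 pair and 2.03 in T1 replicate 3. Its main conversion position was 6286351 in all 3 libraries. These values lay close together across libraries although the reads, 24, 32 and 288, did not. Y73F8A.t1 on chromosome IV, 15235374 to 15235424, had 1.0 and 1.09 in the T1/V1 pair and 1.04 in T1 replicate 3, on 27, 55 and 173 reads. K01A12.t2 on the X chromosome, 8624245 to 8624297, had 1.11 and 1.0 in the T1/V1 pair and 1.07 in T1 replicate 3. Its consensus value, 122 conversions on 114 reads, and those of T07H6.t1, F52E10.t2 and F54F7.t1 were the highest among genes with at least 50 consensus reads. F52E10.t2 was less even, with 1.44 and 0.538 in the T1/V1 pair and 1.34 in T1 replicate 3. F54F7.t1 had 0.875 and 0.867 in the T1/V1 pair and 0.65 in T1 replicate 3.

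At the low end stood ZK783.t1, with 0.0278 and 0.0241 conversions per read in the T1/V1 pair and 0.0521 in T1 replicate 3, that is 1, 2 and 5 conversions on 36, 83 and 96 reads. K02A4.t2 had 0.0595 and 0.0603 in the T1/V1 pair and 0.0474 in T1 replicate 3. The highly covered K02E11.t1 had 0.0769 and 0.128 in the T1/V1 pair and 0.115 in T1 replicate 3. These genes held many reads with few conversions in each library. F45G2.t1, K06A4.t1, ZK783.t1 and Y54G2A.t1 had the fewest among genes with at least 50 consensus reads, with 1, 2, 7 and 8 conversions on 74, 98, 130 and 140 reads. F45G2.t1, on chromosome III at 13411243 to 13411289, had a library cluster in T1 replicate 3 alone, with 37 reads and 1 conversion. K06A4.t1, in an intron of K06A4.4, had 2 and 9 conversions in the T1/V1 pair and 2 in T1 replicate 3, on 40, 67 and 62 reads.

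**Figure D3:**
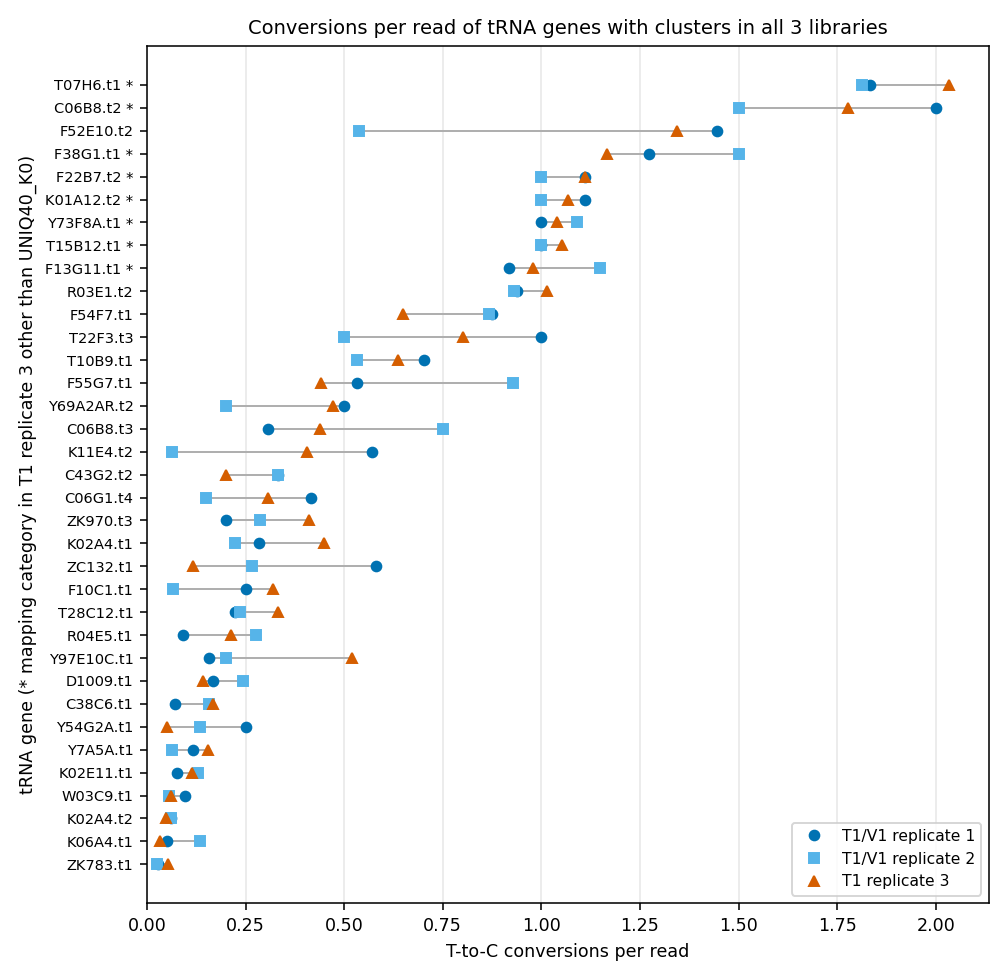
T-to-C conversions per read for the 35 tRNA genes with clusters in all 3 libraries, sorted by their median, with a grey line over the range of the libraries; a star marks genes whose T1 replicate 3 cluster was in a mapping category other than UNIQ40_K0. All 8 starred genes have at least 0.8 conversions per read in every library, and T07H6.t1 reaches 1.83, 1.81 and 2.03.

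Conversions per read moved with the authors' mapping category, named UNIQ40_K0, UNIQ40_K1, UNIQ40_K2 or DUBIOUS, names that the sources used here do not define. Clusters in categories other than UNIQ40_K0 had a median of 0.847, 1.0 and 0.583 conversions per read in replicates 1, 2 and 3, against 0.211, 0.2 and 0.229 for clusters in UNIQ40_K0. With limits set after the values were seen, 9 of the 35 genes had at least 0.8 conversions per read in every library and 7 had at most 0.2. Some of the 9 rested on few reads. In replicates 1, 2 and 3, C06B8.t2 held 3, 4 and 9 reads, F22B7.t2 held 9, 4 and 9, and F38G1.t1 held 11, 4 and 12. As every cluster held at least 1 conversion, clusters with very few reads could not enter the low group. Of the 9, 8 were in a category other than UNIQ40_K0 in T1 replicate 3, and these were all 8 such genes among the 35. The exception was R03E1.t2, with 0.938 and 0.93 in the T1/V1 pair and 1.02 in T1 replicate 3. It was an exception in T1 replicate 3 only. In both T1/V1 libraries its 3' cluster was in UNIQ40_K2, and its 5' cluster was in UNIQ40_K1 in replicate 1 and UNIQ40_K0 in replicate 2. All 7 genes at the low end were in UNIQ40_K0 in T1 replicate 3. The split was less clean in the T1/V1 pair. At the low end, C38C6.t1 was in UNIQ40_K1 and UNIQ40_K2 there, with 0.0714 and 0.158 conversions per read. K06A4.t1 was in UNIQ40_K1 in T1/V1 replicate 1, with 0.05. At the high end, T07H6.t1 and C06B8.t2 were in UNIQ40_K0 in T1/V1 replicate 2, with 1.81 and 1.5. Whether reads of near-identical tRNA copies contribute to the conversions of these genes was not tested.

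The 9 genes with many conversions also mostly shared where the main conversion position lay, near the 3' end of the cluster. The main conversion position was within 5 nt of the cluster's 3' end in 9 and 7 of their 10 clusters in the T1/V1 pair and in 9 of 9 for T1 replicate 3. Among the 7 genes with few conversions it was there in 1, 0 and 2 of 7 clusters. For all tRNA clusters the counts were 19 of 52, 11 of 52 and 28 of 96, and for all nuclear clusters the shares were 23.9%, 13.4% and 14.2%. The consensus list had 26 of 111, against 11.4% of all. The distance of 5 nt was chosen after the values were seen. Whether the conversions of the 9 genes mark bases bound to DCR-1 was not tested. In Y73F8A.t1 the position lay 2 nt before the 3' end in each library, and in K01A12.t2 1, 1 and 2 nt before it in replicates 1, 2 and 3, although the T1 clusters of both genes began farther upstream.

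By cluster, UNIQ40_K0 held 30 and 39 of 52 tRNA clusters in the T1/V1 pair and 66 of 96 for T1 replicate 3, or 57.7%, 75% and 68.8%. For all nuclear clusters the shares were 83.8%, 82.4% and 81.8%. The tRNA share minus that of the other nuclear clusters was -30.3, -8.61 and -14.1 percentage points, lower in 3 of 3 libraries (exact two-sided sign-flip permutation test over libraries, p = 0.25, the smallest possible). In the consensus list 83 of 111 tRNA clusters were in UNIQ40_K0, against 75.2% of all nuclear clusters, and 2 were DUBIOUS. The same gene could change category: C38C6.t1 was in UNIQ40_K1 and UNIQ40_K2 in the T1/V1 pair, where its clusters were short, and in UNIQ40_K0 in T1 replicate 3.

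Clusters on tRNA genes recurred between libraries. Of the 52 tRNA clusters of T1/V1 replicate 1, 38 overlapped a cluster of T1/V1 replicate 2 by at least 1 base on the same strand (73.1%, exact 95% binomial interval 59.0% to 84.4%), against 42.7% of all nuclear clusters. Of the same 52, 46 overlapped a cluster of T1 replicate 3, against 59.4% of all. Of the 52 of T1/V1 replicate 2, 38 overlapped one in T1/V1 replicate 1, and 45 one in T1 replicate 3, against 45.9% and 62.2% of all. Of the 96 of T1 replicate 3, 45 and 44 recurred in the T1/V1 pair, against 16.6% and 16.5% of all. Recurrence was thus above the share of all clusters in each of the 6 directions.

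Among clusters with more reads that difference was smaller, and for T1/V1 replicate 2 in replicate 1 it turned round. Among clusters of at least 10 reads in both lists, 22 of 30 tRNA clusters of T1/V1 replicate 1 recurred in T1/V1 replicate 2, against 70.8% of all such clusters, and 22 of 37 did so in the other direction, against 66.7%. In T1 replicate 3 recurred 30 of 30 from T1/V1 replicate 1 and 36 of 37 from T1/V1 replicate 2, against 88.3% and 91.5%. Of the 73 clusters of T1 replicate 3, 30 and 35 recurred in the T1/V1 pair, against 36.5% and 40.9%. At this depth the intervals of tRNA and other nuclear clusters overlap in each direction. In the pooled consensus list 92 of 111 tRNA clusters had reads from 3 libraries, against 44.9% of all. Conversions came from 3 libraries in 67, against 13.2%, and 83 were also in the conservative list, against 53.2%. Consensus tRNA clusters had conversions from 3, 2 and 1 libraries in 67, 16 and 28 cases, and conservative ones in 67, 16 and 0. The conservative count thus follows library support and is not a separate sign of recurrence.

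**Figure D4:**
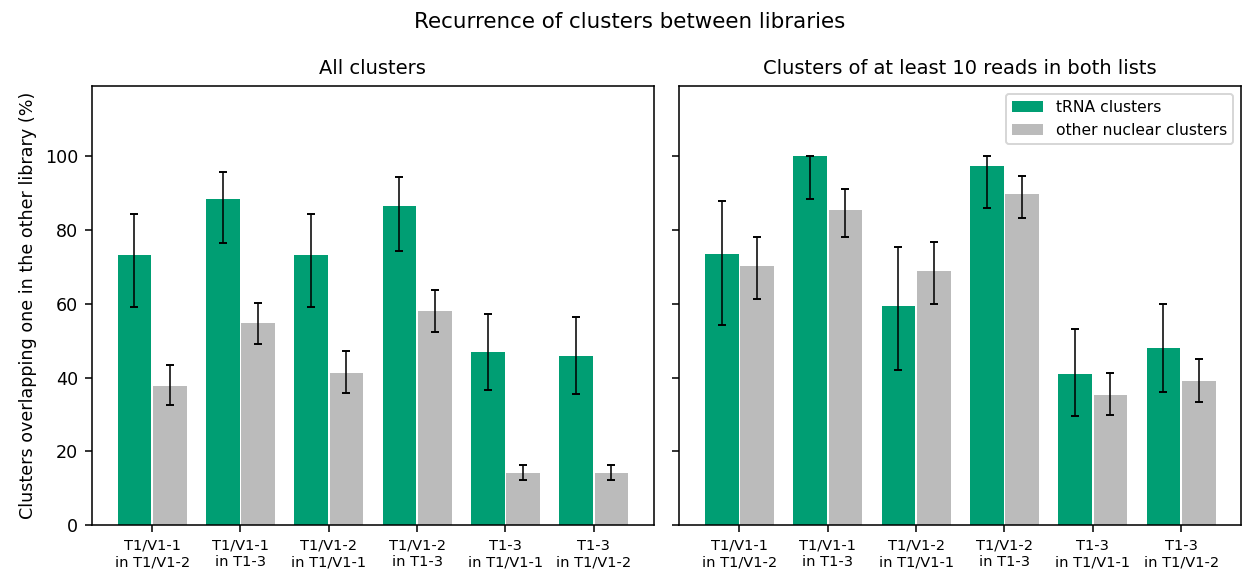
Share of clusters in each library (first named) that overlap a cluster of another library by at least 1 base on the same strand, for tRNA and other nuclear clusters, with exact 95% binomial intervals; left, all clusters, and right, clusters of at least 10 reads in both lists. On the left tRNA bars are higher in each direction (73.1% against 37.8% for T1/V1 replicate 1 in replicate 2), and on the right the intervals overlap.

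Where tRNA clusters overlapped, the share of pairs with the same main conversion position varied between libraries. The position was identical in 25 of 38 overlapping pairs of the T1/V1 replicates, against 39.8% of all nuclear pairs. It was identical in 22 of 46 pairs (47.8%) of T1/V1 replicate 1 with T1 replicate 3, near the 41.5% of all. For T1/V1 replicate 2 with T1 replicate 3 it was identical in 17 of 45, against 26.6% of all. Over the 35 tRNA genes in all 3 libraries, the position was the same in 14 and differed by more than 10 nt in 11. Among tRNA genes in all 3 libraries, T07H6.t1 and Y73F8A.t1 kept 1 position in each library list, as did K02A4.t1, at 12889943. K02E11.t1 did not, with 14231354 and 14231352 in the T1/V1 pair and 14231349 in T1 replicate 3. The widest range was 45 nt, for Y69A2AR.t2.

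Few genes were listed by both T1/V1 libraries and not by T1 replicate 3. F47E1.t3 and M03A1.t2 had clusters in both T1/V1 libraries and none in T1 replicate 3, with 6 and 8 reads and with 8 and 2 reads in replicates 1 and 2. A further 4 were seen only in the first T1/V1 list and 5 only in the second. The most reads among these were the 16 of F28F8.t4 in T1/V1 replicate 2. Presence in both T1/V1 lists is a stricter demand than presence in the 1 T1 list. Another 42 genes had a cluster in T1 replicate 3 alone, led by T04D3.t1 with 113 reads, C44B7.t1 with 102, ZK678.t2 with 82 and C05G6.t1 with 51. Absence from the T1/V1 lists was commoner over all nuclear clusters of T1 replicate 3. Of these, 16.6% and 16.5% overlapped a cluster of T1/V1 replicates 1 and 2, against 45 and 44 of its 96 tRNA clusters. In the other direction, 59.4% and 62.2% of all nuclear clusters of the T1/V1 pair overlapped one of T1 replicate 3. T04D3.t1, on chromosome I at 13324980 to 13325033, had 8 conversions, and C44B7.t1, on chromosome II at 6898128 to 6898205, had 9. For both, the consensus cluster held reads from 3 libraries, so absence from a T1/V1 list does not mean absence of reads. The T1 library had more nuclear reads and more tRNA, snoRNA, miRNA and snRNA clusters, and no test of single genes was made with 1 T1 library.

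Beside other structured RNAs, tRNA clusters held more conversions per read in each library than small nucleolar RNA (snoRNA) clusters, guides of RNA modification. Conversions per read were 0.347, 0.283 and 0.444 for tRNA in replicates 1, 2 and 3, against 0.0588, 0.148 and 0.0686 for snoRNA. The tRNA value was higher in 3 of 3 libraries (exact two-sided sign-flip permutation test over libraries, p = 0.25, the smallest possible). For miRNA the values were 0.315, 0.249 and 0.449, so that tRNA was higher in both T1/V1 libraries and lower in the T1 library (exact sign-flip permutation test, p = 0.5). With tRNA clusters in UNIQ40_K0 alone, a setting chosen after seeing the data, tRNA had 0.228, 0.231 and 0.275. These lay below the miRNA values, taken over all categories, in each library. UNIQ40_K0 held 97.3%, 98.2% and 90.1% of miRNA clusters. The median cluster gave 0.333, 0.24 and 0.267 for tRNA in replicates 1, 2 and 3, against 0.273, 0.232 and 0.474 for miRNA, and the consensus list gave 0.354 for tRNA against 0.623 for miRNA. Against all other nuclear clusters the median tRNA cluster differed by 0, -0.0681 and -0.233 conversions per read (exact sign-flip permutation test, p = 0.5), a direction that reversed to a mean difference of 0.102 among clusters of at least 10 reads. Other RNA polymerase III transcripts also had listed clusters, for which only reads are given here. The Y RNA yrn-1 held 19 and 38 reads in the T1/V1 pair and 63 in T1 replicate 3. The RNA of RNase MRP, mrpr-1, held 18 and 21 reads and 42 reads. The RNA of RNase P, rpr-1, was listed at 9 reads by T1/V1 replicate 2 and by no other library. No list held a nuclear cluster annotated as rRNA.

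Genes that act on tRNAs were counted as mRNAs. The names vars-2 and hoe-1 were not matched. Of the 25 matched genes for aminoacyl-tRNA synthetases, which load tRNAs, and for tRNA splicing and modification, 10 had a consensus cluster on the sense strand, against 12.2% of all 19983 protein-coding genes, and 5 had one in T1 replicate 3, against 3.9%. All 10 were synthetase genes. The phenylalanyl-tRNA synthetase gene fars-1 held 36 consensus reads and 20 in T1 replicate 3, and the lysyl-tRNA synthetase gene kars-1 held 12 consensus reads and none in the library lists. In the T1/V1 libraries 1 of the 25 had a cluster in replicate 1, against 0.901% of all, namely ears-1, for glutamyl-tRNA, with 2 reads, and 0 of 25 in replicate 2, against 0.856%. The ligase gene rtcb-1, needed for tRNA splicing, had no cluster in any list. Transcript levels were not measured, so these counts take no account of abundance.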

How the data were processed

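The deposited lists hold clusters called by the authors with a PAR-CLIP program, with the estimated false discovery rate set to 5%, per the source column and attributes of the files. The pooled lists name different filters, on mapping quality in the conservative list. Among tRNA clusters, however, 2 were DUBIOUS in each pooled list. Those with conversions from 1 library were 28 in the consensus list and 0 in the conservative list. Bowtie2 2.1.0 is named in the submitters' processing notes. Genome build and annotation release: not given in the sources used here. The count of conversions and the count of reads are the authors' deposited values per cluster, not normalised. The attribute of unique reads equals the read count in every cluster. The deposited entropy score was not used. Sequences and anticodons of the tRNAs were not used here. Mapping quality is a category, so the numeric summaries foreseen for it were replaced by the share of clusters in UNIQ40_K0.

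Members were found by class and gene name, and names were matched to the RefSeq table of WBcel235, used for names, biotypes and chromosomes. Shares carry exact 95% binomial intervals, which cover counting error only. Libraries were the unit of the exact two-sided sign-flip permutation test. Overlap needed at least 1 base on the same strand. The named genes were the 12 with most consensus reads, the 8 with the highest mean library share among genes in all 3 libraries, and up to 4 each with most and fewest conversions per read or no library cluster (at least 50 consensus reads), in both T1/V1 lists only, and in the T1 list only. Members, lists and rule were chosen with earlier results of these data known. Alternatives covered read minimums, class rule, length limits, overlap, weighting and left-out replicates. The overlap code was tested on simulated data. Tables were handled with pandas 2.3.3 under Python 3.11.15, tests used SciPy 1.17.1, and plots were drawn with matplotlib 3.10.9.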

Additional observations from a re-analysis of the deposited data

Results flagged for a closer look

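The median length of tRNA clusters minus that of the other nuclear clusters was -1 nt in T1/V1 replicate 1 and -4.5 nt in T1/V1 replicate 2, against 2 nt in T1 replicate 3. It stood out because both T1/V1 libraries differ in sign from the T1 library. The difference between the groups was not tested, since there was 1 T1 library. The opposition of signs was absent under both other ways of computing the difference. Among clusters of at least 10 reads it was -19 and -26 nt in the T1/V1 replicates, against -17 nt in T1 replicate 3. As a mean over clusters it was -4.17 and -11.8 nt, against -7.23 nt.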

How the results depend on the processing

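Values are given for T1/V1 replicates 1 and 2, T1 replicate 3, consensus and conservative lists in that order, where more than 1 is given. With at least 10 reads per cluster, 30 genes were left in T1/V1 replicate 1 and 22 in every library, against 35. In that setting whole clusters were 26.7% and 24.3% in the T1/V1 pair, parts were 33.3% and 32.4% there and 4.71% in the consensus list, 73.3% of T1/V1 replicate 1 clusters were in UNIQ40_K0, and 100% and 97.3% of the clusters of the T1/V1 pair overlapped the T1 library. With no other transcript class allowed, 29, 32, 49, 55 and 41 genes were left. Only in UNIQ40_K0, a setting chosen after seeing the data, T1/V1 replicate 1 had 30 genes, and conversions per read were 0.228, 0.231, 0.275, 0.437 and 0.451. As a median over clusters they were 0.267, 0.354 and 0.417 in the last 3 lists, and without the leading gene 0.467 in the T1 library.

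The tRNA share was 21.4%, 26.1%, 30.4%, 12% and 13.2% of conversions. It was 14.6%, 7.49%, 2.41% and 3.39% of clusters, and 12%, 6.75%, 2.53% and 3.51% of covered bases, in the lists from T1/V1 replicate 2 on. Without the leading gene it was 19.3%, 11.3% and 12.4% of reads in the last 3 lists. With whole set at 50 nt the shares were 26.9%, 26.9%, 63.5%, 66.7% and 72.3%, and with part set at 35 nt they were 7.69%, 7.69% and 3.12% in the libraries. Weighted by reads, a planned weighting applied to shares because the quality is a category, UNIQ40_K0 held 77.2% in T1/V1 replicate 1, 79.0% in T1 replicate 3, and 87.9% and 89.4% in the pooled lists. The single cluster of at most 35 nt in T1/V1 replicate 1 that could be placed gave 100% on the 5' side, and the other libraries had none.

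The mean difference of tRNA from other nuclear clusters in conversions per read, -0.1, reversed to 0.102 with at least 10 reads and to 0.0133 for means over clusters. The difference in length, -1.17 nt, ranged between -2.75 and 0.5 nt when each library was left out in turn, and was positive without T1/V1 replicate 2. It was -20.7 nt with at least 10 reads and -7.73 nt as a mean over clusters, negative in 3 of 3 libraries under both (exact sign-flip permutation test, p = 0.25, the smallest possible). The difference in reads, 13, was 1.33 with at least 10 reads (exact sign-flip permutation test, p = 1), 16.0 as a mean over clusters and 7.5 without T1 replicate 3. Without T1 replicate 3 the difference in conversions per read was -0.034, and without T1/V1 replicate 1 it was -0.15 and the difference in UNIQ40_K0 was -11.4 percentage points, against -17.7 with all libraries. Over the same omissions the genes found in all remaining libraries numbered 37 to 45. The cause was not tested for any of these. A filter above the median mapping quality was not run, since the category is not a number. No paired analysis was possible because the T1/V1 and T1 libraries share no replicate number. A library cluster needs reads past the authors' caller, so a gene missing from a list may still have reads, and T1/V1 lists hold fewer reads than the T1 list.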
